A study of Mus musculus with 14 samples.

Results

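The comparison described here sets the 7 hippocampal libraries from mice without GPR30 in astrocytes against the 7 libraries from mice that keep it. Members were chosen by genotype alone, and all 14 of the 14 libraries of the series entered. The mice were female, 10 weeks old and of strain C57BL/6J. Astrocytic GPR30 was absent in 3 libraries of Δ3102 mice, a global GPR30 knockout made with CRISPR/Cas9, and in 4 of AG-KO mice, which carry GPR30 fl/fl and GFAP-Cre. It was present in 3 libraries of WT mice and in 4 of NG-KO mice, which carry GPR30 fl/fl and NSE-Cre and lack the receptor in neurons. Neurons lacked GPR30 in the Δ3102 and NG-KO mice, so that loss stood once on each side. Cre is driven by the promoter of Gfap, an astrocyte gene, or of Eno2, a neuronal enolase, and the Gfap promoter is also active in neural progenitors. No Cre-only or floxed mice without Cre were analysed here.

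The product of Gper1, GPR30, sits in membranes, responds to estrogen and couples to G proteins, cAMP, protein kinase A and the transcription factor CREB. Astrocytes buffer potassium, take up glutamate, supply cholesterol and shape synapses, and the hippocampus is the tissue in which these functions are tied to spatial and contextual memory. The question was which transcripts track the receptor in astrocytes when the neuronal receptor is balanced between the sides. RNA came from whole hippocampus, so fewer cells of a type and less RNA per cell cannot be told apart.

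Every difference below is the mean of 2 genotype comparisons that share no library. The germline pair is Δ3102 minus WT, and the Cre pair is AG-KO minus NG-KO. The log2 fold change is positive where the transcript was higher without astrocytic GPR30. FPKM, fragments scaled to transcript length and to mapped fragments, is the level deposited for each gene. Counts were tested with edgeR's quasi-likelihood test across 18059 genes, and a gene was called at a Benjamini-Hochberg adjusted p under 0.05. The difference between the pairs is Δ3102 plus NG-KO minus WT minus AG-KO, which sets neuronal GPR30 absent against present. Germline and Cre lines also differ in more than 1 way. An effect of neuronal loss therefore cannot be told apart here from an astrocytic effect that is unlike in the 2 kinds of line.

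The libraries held 44527024 to 62669865 counts. Xist was at 12.2 to 20.2 FPKM in every library, and the Y-linked genes Ddx3y, Uty, Kdm5d and Eif2s3y were at or below 0.131 FPKM. Hippocampal and astrocyte markers were present throughout, with Prox1, a dentate granule cell gene, at 4.13 to 11.5 FPKM, Slc17a7, a glutamatergic neuron gene, at 131 to 238 and Gfap at 61.1 to 120.5. Some libraries also held transcripts of other organs. Prm2, a sperm chromatin gene, was above 1 FPKM in 2 of the 7 libraries without astrocytic GPR30 and in 5 of the 7 with it. Alb, the liver albumin gene, ran from the floor of the table in AG-KO replicates 3 and 4 to 189 FPKM in Δ3102 replicate 2. The labels give each library a genotype and a replicate number but do not say that replicates are separate mice. The p-values therefore measure the spread between these libraries, and values given below for mice of a genotype are those of its libraries.

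Gper1 (ENSMUSG00000053647, GRCm38 chr5:139423151-139427800) was first examined in every library. Its FPKM was 0.0686, 0.145 and 0.0124 in Δ3102 mice and 0.797, 1.15 and 3.05 in WT mice, with no overlap. In the Cre pair it was 0.540, 1.38, 0.891 and 1.22 in AG-KO mice against 1.098, 1.41, 0.975 and 1.12 in NG-KO mice, and these values overlap. The contrast gave a log2 fold change of -2.26 (SE 0.43, edgeR adjusted p = 0.141), made of -4.36 in the germline pair and -0.17 in the Cre pair. An exact two-sided permutation test of log2(FPKM + 0.1), exchanging libraries only within each pair, gave p = 0.0257 over 1400 arrangements (n = 7 and 7), where the smallest possible p is 0.0014. Bulk Gper1 therefore separated the germline genotypes and did not separate the Cre genotypes. AG-KO mice lack the receptor in astrocytes and NG-KO mice in neurons, so bulk RNA of this pair does not check either deletion. Set against WT instead, AG-KO was at -0.68, with means of 1.01 and 1.66 FPKM. These values also overlap, and the WT mean rests largely on replicate 3.

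Few transcripts were called for the contrast of astrocytic GPR30 absent against present. At an adjusted p under 0.05 in edgeR, 5 genes were higher and 9 lower, 14 in all, which is 0.0775% of the genes tested (0.0277% higher and 0.0498% lower). At an unadjusted p under 0.05 there were 1580 genes. Of the 14, 5 were under an unadjusted p of 0.05 in both pairs with the same sign. They were Pja1, Chtop, Gm15446 and Gm27177, lower without the receptor, and the long noncoding RNA AC102496, higher without it. The other 9 owed the call to 1 pair, 8 to the Cre pair and 1 to the germline pair. The count depended on how genotypes were modelled. It was 0 when the 14 libraries were fitted as 2 groups of 7 without genotype means, 1 (Chtop) when that fit also held a term for germline or Cre, 4 with replicate number as a block and 90 in DESeq2. Leaving out 1 library gave 7 genes without WT replicate 3 or Δ3102 replicate 1, and 9 without WT replicate 2, Δ3102 replicate 2 or AG-KO replicate 4. The highest count, 21, came when AG-KO replicate 2 was left out.

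Pja1 (ENSMUSG00000034403, chrX:99465734-99471273) encodes an E3 ubiquitin ligase of the RING type, which attaches ubiquitin to target proteins. Its FPKM was 19.9, 14.8 and 19.7 in Δ3102 mice, and AG-KO mice had 14.7, 22.6, 22.4 and 27.4. It was 56.0, 45.9 and 61.4 in WT mice and 57.4, 61.95, 57.2 and 25.0 in NG-KO mice. The groups would be apart but for NG-KO replicate 4, whose value lay among those of mice without astrocytic GPR30. Pja1 fell by 1.38 on the log2 scale (SE 0.20, edgeR adjusted p = 0.0257), with -1.58 in the germline pair and -1.19 in the Cre pair. The pairs did not differ from each other at the threshold (difference -0.39, edgeR adjusted p = 0.850). The exact permutation test gave p = 0.0029 (two-sided, n = 7 and 7). The study chose Pja1 on these libraries for a change in Δ3102 and AG-KO mice but not in NG-KO mice. Neither this p nor the likeness of the pairs is therefore independent evidence. The study also measured PJA1 in Δ3102, AG-KO and NG-KO mice by quantitative PCR and Western blot. It reports less PJA1 after a virus carrying Cre deleted astrocytic GPR30. Those measurements were not examined here. The call was lost without WT replicate 1 (-1.37) or 3 (-1.34), Δ3102 replicate 1 (-1.42), 2 (-1.32) or 3 (-1.41), AG-KO replicate 3 (-1.40) and NG-KO replicate 1 (-1.35) or 2 (-1.33), while the size stayed between -1.50 and -1.30.

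Chtop (ENSMUSG00000001017, chr3:90498956-90509498) encodes a chromatin-associated target of the arginine methyltransferase PRMT1 that takes part in mRNA export. Δ3102 mice had 18.5, 18.4 and 16.4 FPKM and AG-KO mice 16.4, 15.8, 12.6 and 14.3. WT mice had 25.0, 23.6 and 25.8 and NG-KO mice 22.4, 20.3, 23.1 and 18.9. Every library without astrocytic GPR30 was below every library with it, the nearest being 18.5 in Δ3102 replicate 1 and 18.9 in NG-KO replicate 4. Chtop fell by 0.49 on the log2 scale (SE 0.07, edgeR adjusted p = 0.0168), and the germline and Cre pairs were alike in size, at -0.48 and -0.50. It was called without each library but WT replicate 3 (-0.48), and lost with Prm2, Alb or Ttr as a covariate at -0.49, -0.44 and -0.48. Set across the lines instead, AG-KO minus WT was -0.72 and Δ3102 minus NG-KO was -0.26. Both signs follow from the separation of the libraries and are no further evidence.

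CREB binds the palindrome TGACGTCA and, with less affinity, its 5-base core TGACG. Both were searched on both strands in RefSeq promoter windows of GRCm38.p6 (from 250 bases before to 50 after the transcription start), for the called genes and the genes whose libraries did not overlap. Of 31 such genes, 14 had a window there. Pja1 had none, so its promoter was not searched, and the study reports CREB bound to it in cultured astrocytes. None of the 14 holds TGACGTCA, which is in 1.79% of all windows and in the windows of 2.03% of all genes. The core, which also occurs within the palindrome, is in a window of 4 of them, Alad, Chtop, Akt2 and Armcx5. It is in 20.8% of all windows and in the windows of 23% of all genes. Several of these genes have more than 1 window. The window of Chtop is shown because it is the gene whose libraries separate completely and whose change was alike in both pairs. The stretch is chr3:90509499-90509748 of GRCm38.p6, minus strand, written in the direction of the gene up to the transcription start, with the core in capitals 29 bases before the start.

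Chtop: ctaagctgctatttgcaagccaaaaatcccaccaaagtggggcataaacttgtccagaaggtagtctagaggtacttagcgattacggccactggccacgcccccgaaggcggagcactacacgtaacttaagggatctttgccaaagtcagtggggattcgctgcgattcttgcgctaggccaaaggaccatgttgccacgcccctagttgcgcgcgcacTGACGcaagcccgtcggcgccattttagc

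AC102496 (ENSMUSG00000117465, chr18:30267249-30272133) is annotated as a long intergenic noncoding RNA. It stood at 7.94, 7.402 and 8.35 FPKM in Δ3102 mice, and AG-KO mice had 11.9, 11.9, 8.94 and 10.7. In WT mice it was 2.12, 2.09 and 2.10, and in NG-KO mice 3.56, 7.64, 1.75 and 3.94. It rose by a log2 fold change of 1.64 (SE 0.25, edgeR adjusted p = 0.0260), with 1.91 in the germline pair and 1.38 in the Cre pair. Only NG-KO replicate 2 overlapped the mice without astrocytic GPR30, and it passed Δ3102 replicate 2 alone. The call was kept in 4 of the 14 fits that left out 1 library, and the size in all 14 was between 1.51 and 1.87.

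The other transcripts that moved the same way in both pairs were annotated gene models. Gm27177 (chr14:69582164-69683286), an antisense transcript, was at or below 0.300 FPKM in all 7 libraries without astrocytic GPR30. In WT libraries it was at 2.72 to 3.59. The NG-KO libraries split, replicates 1 and 3 being low (0.0954 and 0.347) and replicates 2 and 4 close to WT (2.47 and 2.89). Its log2 fold change was -4.14 (SE 0.67, edgeR adjusted p = 0.0469), called in 2 of the 14 fits without 1 library, at -4.45 to -3.85. The kit marks strand, but the counting is not stated to have used it, so reads of Gm27177 and of genes on the opposite strand may be mixed. Nearby on chromosome 14, Gm16867, Entpd4 and Entpd4b, chosen after their values were seen, split the NG-KO libraries in the same manner. Entpd4b was at 5.28 and 4.70 FPKM in NG-KO replicates 1 and 3 and at 9.24 and 8.37 in replicates 2 and 4, against 8.01 to 10.9 in WT mice and 4.46 to 5.31 in the mice without astrocytic GPR30. Entpd4 and Entpd4b are near-identical copies, and how reads were shared between them is uncertain.

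Gm15446 (chr5:109923400-109943936), annotated as protein coding, fell by 2.14 on the log2 scale (SE 0.22, edgeR adjusted p = 0.0018). Most of that came from AG-KO mice, at 0.217, 0.280, 0.279 and 0.137 FPKM. Δ3102 mice stood at 1.07, 2.50 and 2.22, WT mice at 3.504, 4.38 and 3.11 and NG-KO mice at 2.99, 2.61, 2.13 and 2.00. The Cre pair gave -3.36 and the germline pair -0.92, and Δ3102 and NG-KO mice overlapped. The call was kept in all 14 fits that left out 1 library.

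**Figure D1:**
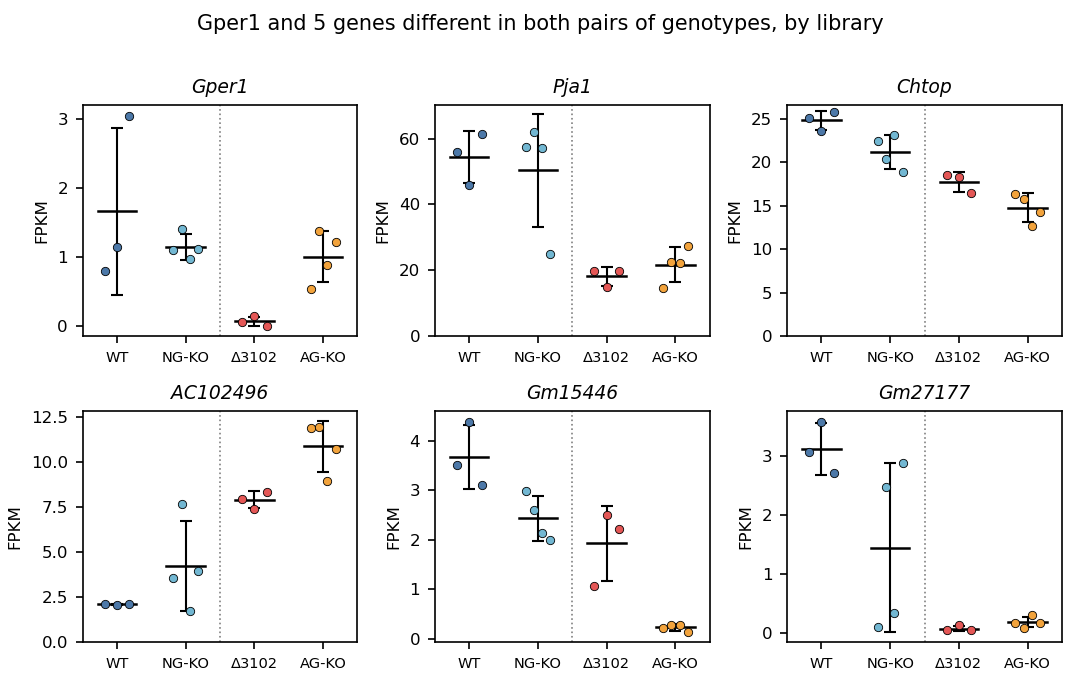
FPKM (vertical axes, linear) of Gper1 and of the 5 called genes that differed in both pairs, 1 point per library, with the mean and SD of each genotype as lines. WT and NG-KO mice, left of the dotted line, keep astrocytic GPR30, and the plot shows complete separation of the sides for Chtop and 1 NG-KO library on the other side for Pja1 (25.0) and AC102496 (7.64).

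The other 9 called genes were carried by a single pair of genotypes. In the Cre pair, NG-KO mice stood apart from all other libraries for Gm13394, Gapdh-ps15, Gm26826, Gm10284, Alad, Invs and Tspan11. Gm13394 (chr2:28933610-28934609), a processed pseudogene, was at 409 to 494 FPKM in NG-KO mice and at 26.5 to 42.6 in the other 10 libraries. Gapdh-ps15, a processed pseudogene annotated on chromosome Y, was at 0.0669 to 0.122 FPKM in NG-KO mice and at 2.56 to 4.38 elsewhere, in mice labelled female. Reads of such pseudogenes may come from their parent genes or other copies, and their levels are uncertain. Gm26826 had 0 counts in every NG-KO library and 0.344 to 1.08 FPKM in the other mice. AG-KO mice were at least 14.8-fold higher than a floor of 3 counts per NG-KO library.

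Alad (chr4:62509169-62519918), an enzyme of heme synthesis, was at 22.3 to 28.3 FPKM in NG-KO mice and at 7.32 to 9.62 in the other 10 libraries. It fell by 0.70 in the contrast (SE 0.08, edgeR adjusted p = 0.0027), with 0.10 in the germline pair and -1.51 in the Cre pair. Its neighbour Hdhd3, chosen after its values were seen, was also highest in NG-KO mice, at 6.97 to 11.3 FPKM against 1.38 to 3.72. Invs, which encodes the ciliary protein inversin, was at 3.12 to 3.33 FPKM in NG-KO mice and 1.18 to 1.76 elsewhere. Tspan11, a tetraspanin, was at 0.547 to 1.11 FPKM in NG-KO mice and at or below 0.239 elsewhere. Tspan11 was the other called gene whose 7 and 7 libraries did not overlap, although WT mice (0.199 to 0.239) lay close to Δ3102 mice (0.123 to 0.173).

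Gm10284, a processed pseudogene, was at 0.308 to 0.667 FPKM in NG-KO mice and at 12.5 to 18.5 in WT and Δ3102 mice. AG-KO libraries split for it, replicates 1 and 2 being at 13.98 and 15.6 and the remaining replicates, 3 and 4, at 4.23 and 3.67. Edil3, a secreted protein that binds integrins, rose through AG-KO mice alone. It was at 3.56 to 4.52 FPKM there and at 1.61 to 2.49 in the other 10 libraries. Its log2 fold change was 0.56 (SE 0.08, edgeR adjusted p = 0.0257). Myh10, a nonmuscle myosin heavy chain present in dendritic spines, fell through Δ3102 mice alone, at 12.9 to 13.9 FPKM against 22.9 to 27.6. Its log2 fold change was -0.39 in the contrast (SE 0.05, edgeR adjusted p = 0.0037), -0.79 in the germline pair and 0.00 in the Cre pair. For 7 of the 14 called genes the pairs themselves differed at an edgeR adjusted p under 0.05, and 8 of all genes tested did so (0.0443%). Gm13394, Gapdh-ps15, Alad and Myh10 were called in all 14 fits that left out 1 library, and Gm26826 was lost without WT replicate 1 (4.22), 2 (4.40) or 3 (4.41) or Δ3102 replicate 1 (4.39). Edil3, Gm10284, Tspan11 and Invs were kept in 5, 4, 4 and 1 of these fits, at log2 fold changes of 0.52 to 0.62, 1.99 to 2.30, -1.71 to -1.52 and -0.44 to -0.39.

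**Figure D2:**
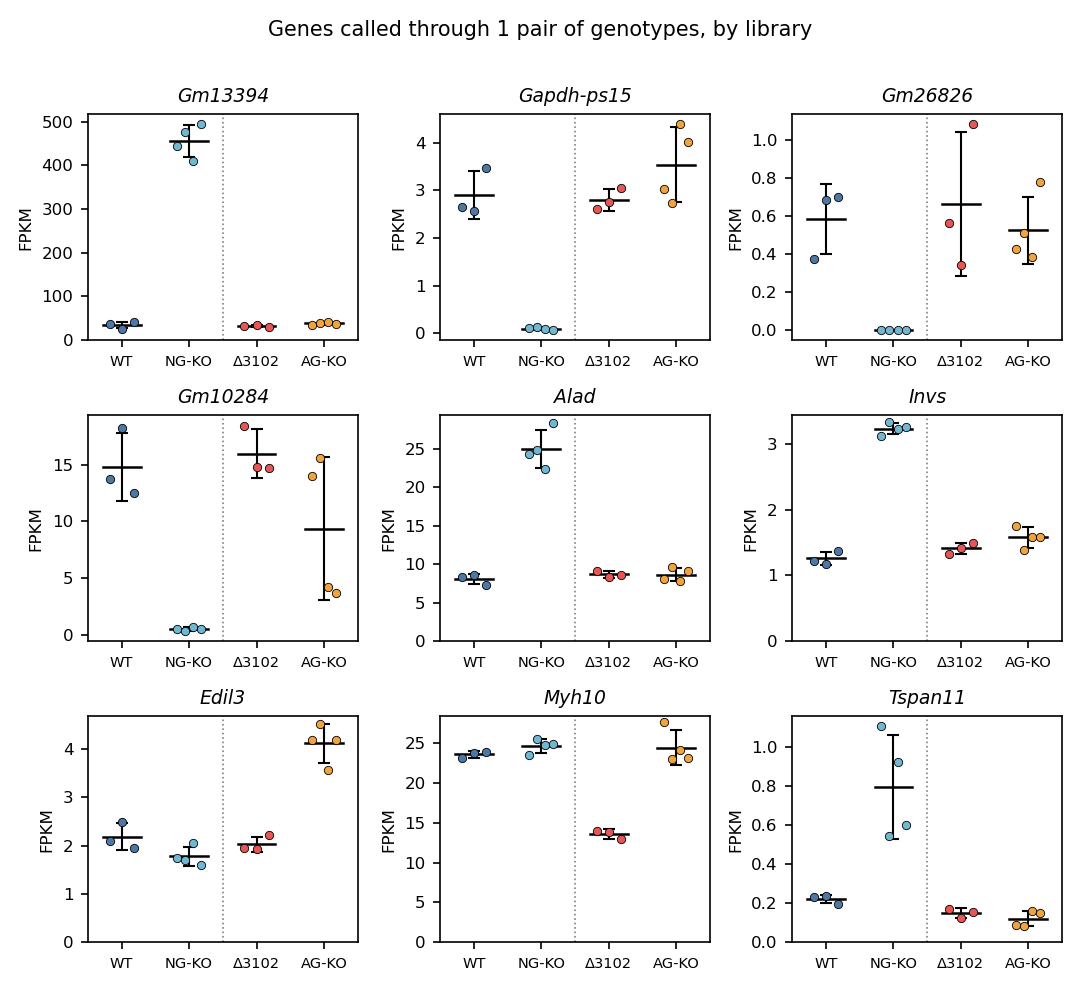
FPKM (vertical axes, linear) of the 9 called genes that differed in 1 pair of genotypes, 1 point per library, with the mean and SD of each genotype as lines. NG-KO mice are apart from the other 3 genotypes in 7 panels, AG-KO mice in the panel of Edil3 (3.56 to 4.52) and Δ3102 mice in the panel of Myh10 (12.9 to 13.9).

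The pairs were then set side by side across all genes. In edgeR 2 genes were called in the germline pair (0.0111%) and 20 in the Cre pair (0.111%), and 1 was called in both, the pseudogene Pisd-ps1, named here after its values were seen, at 1.54 in the germline pair and -1.25 in the Cre pair. At an unadjusted p under 0.05 in both pairs there were 173 genes, 79 with the same sign (0.437%) and 94 with opposite signs (0.521%). Across the tested genes the log2 fold changes of the pairs had a Pearson r of 0.0707 and a Spearman rho of 0.0788, and 52.3% of genes had the same sign. These are descriptions across genes, which are not independent of each other, but the pairs share no library. Of the 79 genes with the same sign, 42 were higher and 37 lower without astrocytic GPR30.

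**Figure D3:**
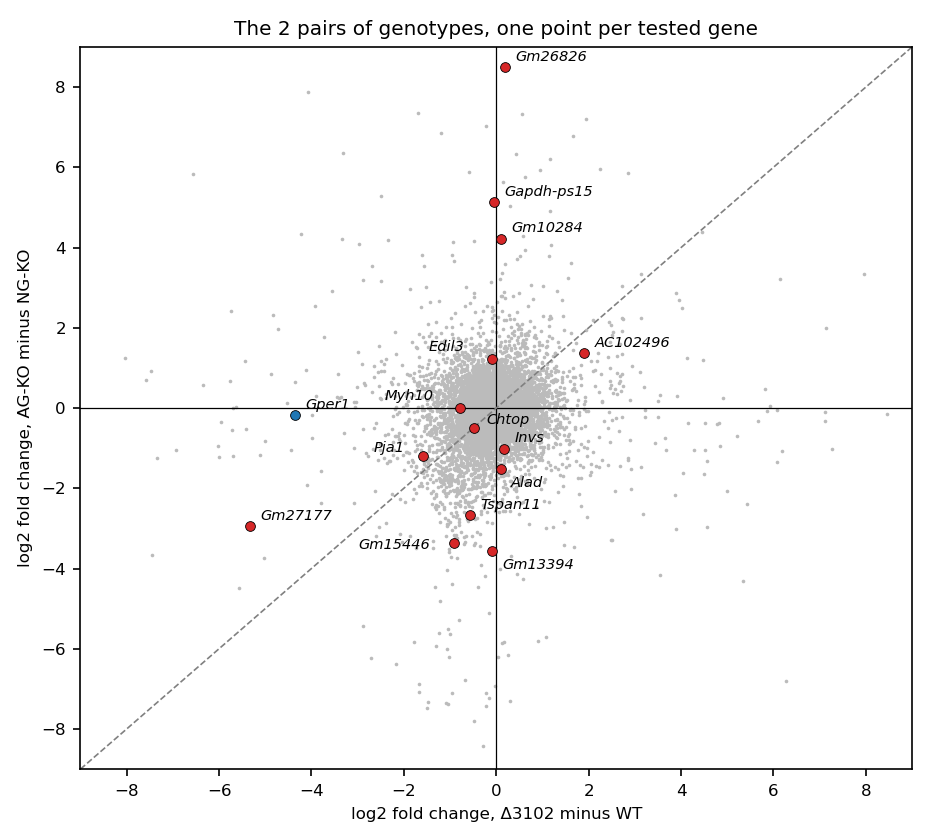
Log2 fold change in the germline pair (horizontal axis) and in the Cre pair (vertical axis), 1 point per tested gene, with called genes in red, Gper1 in blue and equal change as a dashed line. Pja1, Chtop and AC102496 lie near the dashed line, Gm27177 has the same sign on both axes (-5.33 and -2.94), most other called genes lie near the vertical axis, and 7 tested genes fall outside the axes.

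A further view takes no model: the genes whose 7 libraries without astrocytic GPR30 were all above, or all below, the 7 with it. On FPKM there were 29, of which 9 were higher (0.0498% of tested genes) and 20 lower (0.111%). On TMM-normalized counts scaled to library size there were 15 higher and 21 lower, and 24 genes were in both sets. All 29 were under an unadjusted p of 0.05 in edgeR, which picking them for separation on these same libraries makes likely. That is therefore no further evidence. Of the 29, 2 were called, Chtop and Tspan11. With a mean of at least 1 FPKM on the higher side and predicted gene models set aside, 8 higher genes and the 10 lower genes with the largest change are described here. Apart from Chtop none of these 18 passed the adjusted threshold, and their log2 changes were between 0.18 and 1.54 in size.

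The 8 higher genes differed in function. Acsbg1, an acyl-CoA synthetase found in astrocytes, was at 37.45 to 45.0 FPKM without astrocytic GPR30 and 33.8 to 37.0 with it (log2 fold change 0.20, SE 0.05). Akt2, a kinase of insulin signaling, was at 12.8 to 14.5 against 8.67 to 12.6 FPKM (0.29, SE 0.07). Castor2, an arginine sensor of the mTORC1 pathway, was at 20.8 to 24.2 against 15.1 to 20.5 (0.31, SE 0.07). Snx27, a sorting nexin that recycles receptors from endosomes, was at 20.2 to 22.3 against 17.2 to 20.2 (0.20, SE 0.05). Clvs1, a lipid-binding protein of neuronal clathrin vesicles, was at 3.83 to 5.25 against 2.50 to 3.74 (0.41, SE 0.10). Psd2, an exchange factor for ARF proteins, and Tmem245, a membrane protein, were at 0.26 and 0.18. The small nucleolar RNA Rnu73b completed the group at 1.54 (SE 0.64). Its level was low, at 0.697 to 1.65 FPKM without astrocytic GPR30. With the receptor it ran from 0.0001, the floor of the table, to 0.617. The sides of some of these genes almost touched, the nearest values being 9.414 and 9.399 FPKM for Psd2 and 20.22 and 20.16 for Snx27.

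The lower genes, Chtop apart, were these. Rbm3, an RNA-binding protein induced by cold, was at 7.76 to 11.6 FPKM without astrocytic GPR30 and 12.5 to 15.2 with it (log2 fold change -0.47, SE 0.09, edgeR adjusted p = 0.131), with -0.38 in the germline pair and -0.56 in the Cre pair. Nemf, a factor of ribosome quality control, was at 4.96 to 6.36 against 6.48 to 7.31 FPKM (-0.27, SE 0.06). Dnajc2, a ribosome-associated chaperone, was at 2.58 to 3.495 against 3.72 to 4.23 (-0.31, SE 0.06). Ciao2b, which assembles iron-sulfur clusters on cytosolic proteins, was at 7.53 to 11.2 against 11.7 to 14.2 (-0.39, SE 0.10). Zfyve21, a lipid-binding protein of endosomes and focal adhesions, was at 1.80 to 2.85 against 3.26 to 5.68 (-0.76, SE 0.16). Armcx5 and Tigd2 were at -0.42 and -0.31. The ribosomal protein pseudogenes Rpl18-ps1 and Rpl21-ps6 were at -0.98 and -0.97, and in both the AG-KO libraries split as for Gm10284. Rpl18-ps1 was at 7.56 and 6.73 FPKM in AG-KO replicates 1 and 2 and at 1.86 and 1.88 in replicates 3 and 4, the replicates in which Alb was at the floor.

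**Figure D4:**
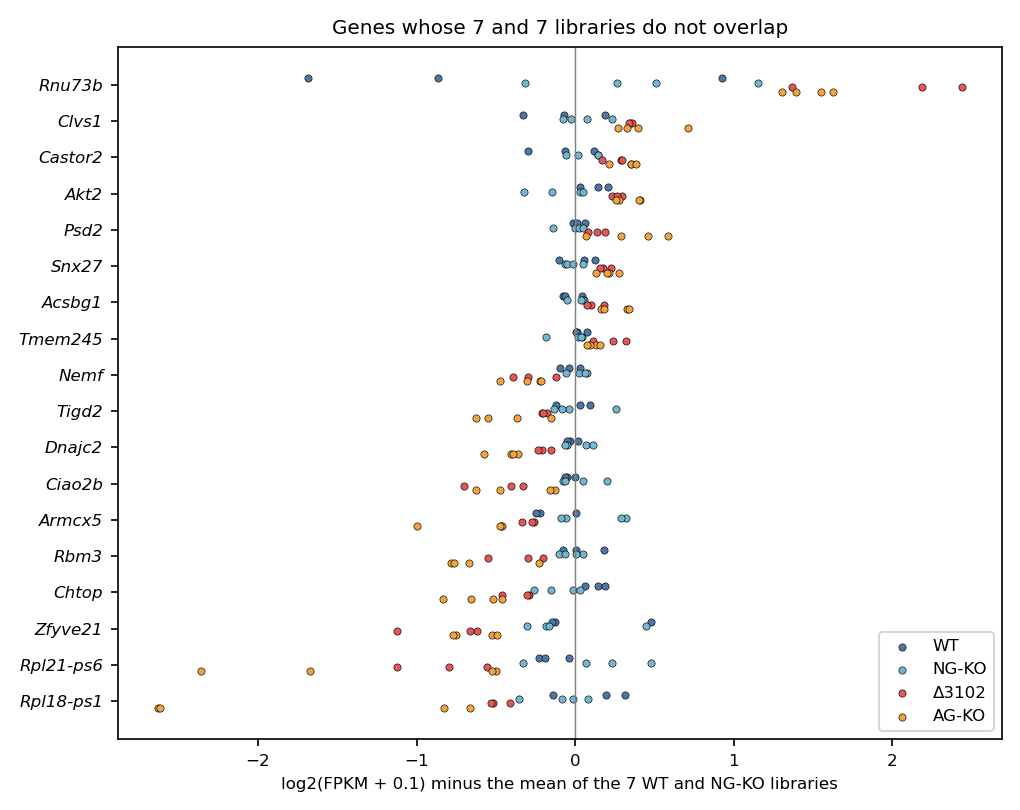
The 18 genes whose 7 and 7 libraries did not overlap, as log2(FPKM + 0.1) of each library minus the mean over the 7 WT and NG-KO libraries (horizontal axis). Most genes sit within 1 log2 unit, the sides abut rather than stand far apart, and the ribosomal protein pseudogenes are lowest in 2 AG-KO libraries.

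Genes around the receptor were examined because a change at the locus can affect its neighbours. Of 28 tested genes within 1 Mb of Gper1 none was called, and 5 were under an unadjusted p of 0.05, 4 higher and 1 lower, where 4.54% of all tested genes were higher and 4.21% lower. The median log2 fold change was -0.04, against -0.0076 over all genes tested. Gpr146 (chr5:139377697-139396415), an orphan receptor at a lower coordinate than Gper1, was at 0.0462, 0.517 and 0.935 FPKM in WT mice and at 1.58 to 3.27 in the other 11. Its log2 fold change was 1.45 (SE 0.40, edgeR adjusted p = 0.387), with 2.53 in the germline pair and 0.37 in the Cre pair, so WT mice were the ones apart.

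Genes that the study followed beyond Pja1 were tested singly. The values here are RNA, whereas the study measured Serpina3n and drebrin as proteins, which RNA need not follow. Serpina3n, a serine protease inhibitor of reactive astrocytes, was at 28 to 44.7 FPKM without astrocytic GPR30 and 22.3 to 37.3 with it. Its log2 fold change was 0.29 (SE 0.12, edgeR adjusted p = 0.535, exact permutation p = 0.0600, two-sided, n = 7 and 7), 0.03 in the germline pair and 0.55 in the Cre pair. Gfap, the intermediate filament of astrocytes, was at 0.09 (SE 0.10, exact permutation p = 0.520, n = 7 and 7), with -0.27 in the germline pair and 0.45 in the Cre pair. Dbn1, the spine protein drebrin, was at 0.04 (SE 0.05, exact permutation p = 0.647, n = 7 and 7), with -0.05 in the germline pair and 0.12 in the Cre pair. The study reports drebrin protein higher in Δ3102 mice and lower in AG-KO mice than in their controls, a pattern that a mean of the pairs can cancel. These exact tests covered 5 genes in all, Gper1 and Pja1 included, and are given unadjusted. Gfm2, a mitochondrial translation factor, was at 0.17 (SE 0.08), Creb1 at 0.30 (SE 0.40) and Eno2 at -0.09 (SE 0.04).

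Gene lists of pathways and cell types were then read against the whole table. An unadjusted p under 0.05 was reached by 4.54% of tested genes in the higher direction and by 4.21% in the lower one, and the median log2 fold change was -0.0076. Of all list members tested, 2 were called, Pja1 and Myh10. The plot of the lists shows each member and the medians of the pairs.

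Homeostatic astrocyte genes were more often positive than negative, as were several other brain lists. The positive share was 75.7% here, 86.7% in synaptic vesicle genes, 93.3% in endothelial and mural genes and 53.3% in excitatory neuron genes. Of 37 tested, 8 were under an unadjusted p of 0.05 in the higher direction and 1 in the lower, and 28 of 37 had a positive sign (median 0.09), as did 48.2% of all tested genes. The pairs were unlike in these counts. The germline pair had 1 higher and 3 lower at that p (2.27% of all genes were lower), 21 positive and a median of 0.03. The Cre pair had 12 higher (7.3% of all genes were) and 0 lower, 30 positive and a median of 0.14. Kcnj10, the potassium channel Kir4.1 of astrocyte end feet, had the smallest p, at 33.1 to 53.7 FPKM against 27.0 to 37.1 (log2 fold change 0.42, SE 0.09, edgeR adjusted p = 0.242), with 0.12 in the germline pair and 0.72 in the Cre pair. The member in the lower direction was Apoe, the main lipid carrier made by astrocytes, chosen after its values were seen, at -0.22 (SE 0.07). The summed FPKM of the 37 genes was 3173 to 3386 without and 3088 to 3585 with astrocytic GPR30, and these ranges overlap. Leaving out 1 library gave 6 to 10 members in the higher direction and a median of 0.06 to 0.11.

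Reactive astrocyte lists gave no called member. Of 11 A1 markers, transcripts tied to a neurotoxic astrocyte state, 1 was higher and 1 lower at an unadjusted p under 0.05 (median 0.02). In sign, 6 were positive and 5 negative. The higher member was H2-D1, a class I histocompatibility gene, at 0.27 (SE 0.11). The lower was Ugt1a1, chosen after its values were seen, at -4.36, with -0.30 in the germline pair and -8.42 in the Cre pair. Of 7 tested A2 markers, tied to a protective state, none was under that p in either direction (median -0.10). Their signs were 2 positive and 5 negative, and Tm4sf1, the member with the smallest p, was at 0.21 (SE 0.15). Of 11 pan-reactive genes 1 was, Serpina3n, and the median was -0.20 in the germline pair and 0.41 in the Cre pair. Of 13 tested cytokine and NF-kappaB genes 3 were higher (median 0.18), with Myd88, an adaptor of Toll-like receptors, at 0.40 (SE 0.18). That count was at most 2 with any 1 library left out, and 0 without NG-KO replicate 2 or 4. Tnf, Il6 and Il1b did not reach the level needed for testing.

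Signaling genes of the receptor showed no called member either. Of 32 genes from G proteins to CREB, 3 were higher and 3 lower at an unadjusted p under 0.05 (median 0.06), with Gper1 itself the smallest. Of 24 CREB-responsive immediate early genes 3 were higher and none lower, and 20 of 24 had a positive sign (median 0.23, with -0.02 in the germline pair and 0.45 in the Cre pair). Dusp1, a phosphatase of MAP kinases, was at 0.38 (SE 0.16). Single AG-KO libraries moved this list: leaving out AG-KO replicate 4 gave 11 higher members, and leaving out AG-KO replicate 1, AG-KO replicate 2 or NG-KO replicate 1 gave 0. Of 10 tested steroid receptor and estrogen genes 1 was higher, the glucocorticoid receptor Nr3c1 (0.63, SE 0.25), and Esr1, Esr2 and Cyp19a1 were too low to test. Of 14 genes of the Pja1 list 3 were higher and Pja1 alone lower (median 0.00), and the study chose Pja1 on these libraries, so its direction is not independent evidence.

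Synaptic and neuronal lists had small medians. Of 35 spine and postsynaptic genes 3 were higher at an unadjusted p under 0.05 and Myh10 alone was lower (median 0.07). Of 30 synaptic vesicle genes 2 were higher (median 0.07), and 26 of 30 had a positive sign. That count was 0 without WT replicate 1 or 3, Δ3102 replicate 1 or NG-KO replicate 2 or 4, and 6 without AG-KO replicate 1 or 2. The smallest p there was that of Adgrl1, a latrophilin receptor of synapses, at 0.22 (SE 0.09). It was at 24.7 to 26.4 FPKM in WT mice and 25.7 to 42.2 in Δ3102 mice, but at 48.9 to 56.5 in both Cre genotypes. Of 15 interneuron genes 5 were higher (median 0.09), with the neuropeptide gene Npy at 0.18 (SE 0.06), and 3 were without WT replicate 1 or 2 or Δ3102 replicate 2. Of 15 excitatory neuron genes 1 was lower, Fibcd1, a marker of CA1 pyramidal cells (-0.27, SE 0.11).

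Genes of oligodendrocytes, the cells that make myelin, had opposite signs in the pairs. In the contrast 14 of 15 were positive with a median of 0.08, and 1, Enpp2, which choroid plexus also makes, was under an unadjusted p of 0.05 (0.92, SE 0.36). In the germline pair 9 of 15 were lower at an unadjusted p under 0.05 in edgeR (2.27% of all genes) and none higher, with a median of -0.68. In the Cre pair 14 of 15 were higher (7.3% of all genes) and none lower, with a median of 0.83. For 14 of 15 the difference between the pairs was under an unadjusted p of 0.05 (8.13% of all genes), and none passed after adjustment. Their summed FPKM was 508 to 1158 in WT mice, 453 to 618 in Δ3102 mice, while AG-KO mice were at 514.5 to 939.5 and NG-KO mice at 321 to 470. The difference between the pairs was under that p for 13 to 15 of the 15 genes when 1 library was left out, but the 9 lower genes of the germline pair became 1 without WT replicate 2 or without Δ3102 replicate 3. The part of white matter in the dissected tissue was not tested.

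**Figure D5:**
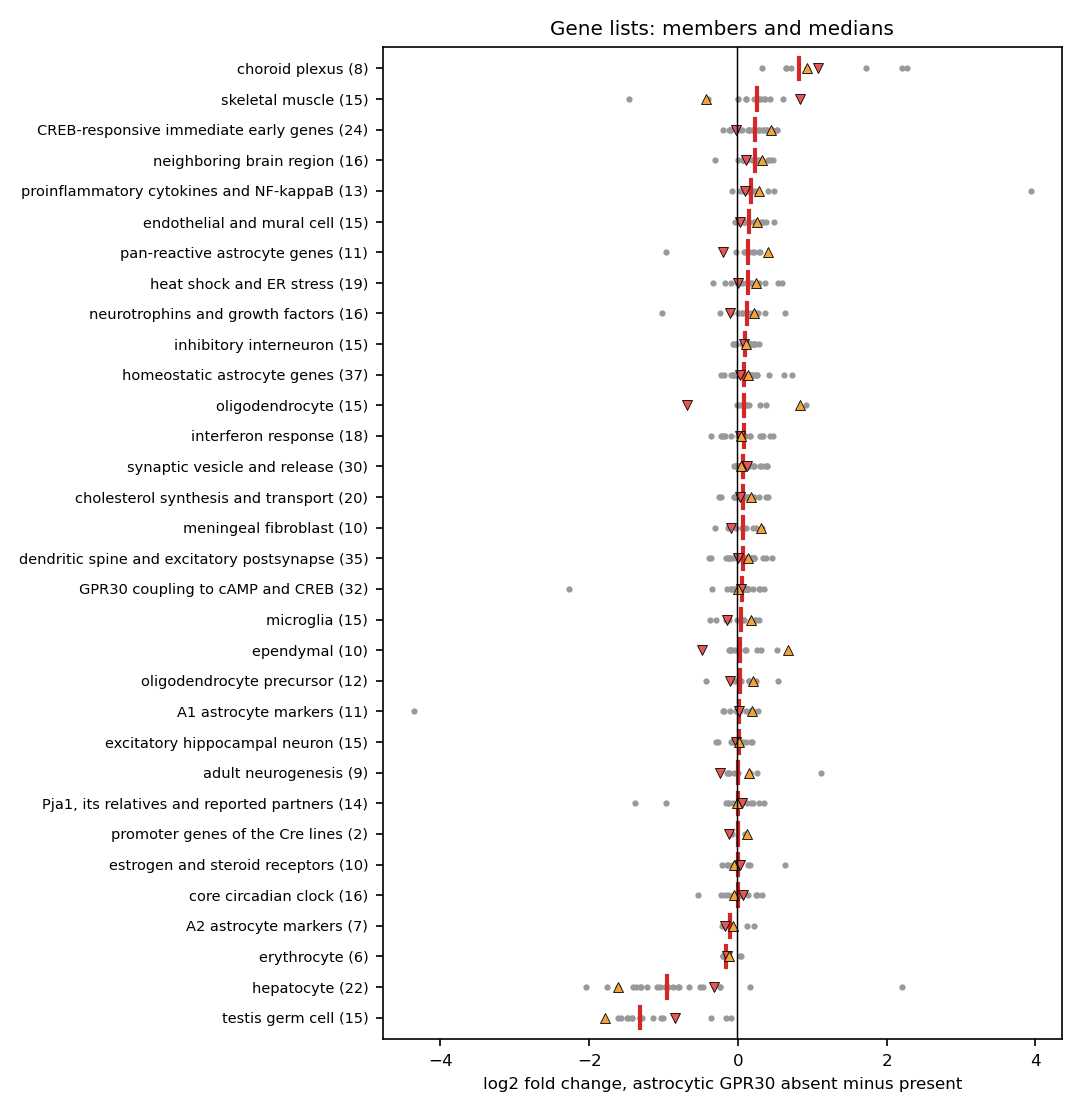
Log2 fold change without minus with astrocytic GPR30 (horizontal axis) of the members of 32 gene lists (grey points, number tested in parentheses), with each list's median in the contrast (red bar), the germline pair (downward triangle) and the Cre pair (upward triangle), and the median of all genes as a black line. Oligodendrocyte and ependymal triangles lie on opposite sides of the line, and testis, hepatocyte and choroid plexus lists have the medians farthest from it (-1.31, -0.96 and 0.82).

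Other cell types and pathways are given by their counts. Of 15 endothelial and mural genes 6 were higher and none lower at an unadjusted p under 0.05 (median 0.15), with Abcc9, a potassium channel subunit of pericytes, at 0.815 to 1.21 against 0.707 to 0.934 FPKM (0.37, SE 0.10). That count was 3 without WT replicate 2, Δ3102 replicate 2, AG-KO replicate 3 or AG-KO replicate 4. Of 15 microglial genes 2 were higher and 1 lower (median 0.04). Of 12 oligodendrocyte precursor genes 1 was higher, Vcan, a matrix proteoglycan (0.25, SE 0.10). Of 10 ependymal genes none was, with medians of -0.48 in the germline pair and 0.68 in the Cre pair and Tmem212 at 0.53 (SE 0.47). Of 10 meningeal fibroblast genes and 9 adult neurogenesis genes none was under that p (medians 0.07 and 0.00), with Ogn at 0.32 (SE 0.28) and Eomes at 1.11 (SE 0.66). Of 16 genes of neighboring brain regions 1 was higher, the striatal dopamine receptor gene Drd2 (0.43, SE 0.17), with a median of 0.22.

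Of 20 cholesterol genes 4 were higher and 1 lower (median 0.07), and Dhcr7, a late enzyme of cholesterol synthesis, was at 0.29 (SE 0.08), with 2 higher without WT replicate 2. Of 19 heat shock and endoplasmic reticulum stress genes 6 were higher and none lower (median 0.13), with the chaperone Hspa1b at 0.54 (SE 0.17). That count was 9 without AG-KO replicate 4 and 2 without WT replicate 1, Δ3102 replicate 1 or NG-KO replicate 2. Of 16 clock genes 2 were higher and 2 lower (median 0.00), with Per2 at 0.24 (SE 0.10). Of 18 interferon genes 1 was lower, Ifi27 (-0.18, SE 0.08), and of 16 growth factor genes 1 was higher, Gfra2, a neurturin receptor (0.23, SE 0.08). Of the promoter genes of the Cre lines, Gfap and Eno2, none was under that p in the contrast, but both were in the Cre pair, at 0.45 (edgeR adjusted p = 0.170) and -0.20 (edgeR adjusted p = 0.1515). Between the pairs the difference was -0.72 for Gfap and 0.24 for Eno2, each under an unadjusted p of 0.05 and not past the adjusted threshold. Eno2 was at 173 to 184 FPKM in NG-KO mice, above all other libraries (136 to 170.5).

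Transcripts of other tissues held no called member. All 15 testis germ cell genes had a negative sign (median -1.31) and none was under an unadjusted p of 0.05 in edgeR, with Tssk6, a sperm kinase, at -1.002 (SE 0.49). Without Δ3102 replicate 3, 13 of the 15 were. Of 22 hepatocyte genes 20 had a negative sign (median -0.96), and 16 were lower under that p without AG-KO replicate 1, against 0 with all libraries. The summed FPKM of the testis list was 13.2 to 264 without and 13.3 to 269.5 with astrocytic GPR30, and that of the hepatocyte list 86.5 to 2203 and 67.0 to 880. Skeletal muscle and erythrocyte genes had no member under that p (medians 0.26 and -0.16). The members with the smallest p were Mb at -1.47 (SE 0.99) and Hba-a1 at -0.21 (SE 0.22), although 13 of 15 muscle genes had a positive sign. Of 8 tested choroid plexus genes 4 were higher (median 0.82), with Clic6 at 2.27 (SE 0.76), and Ttr, which the plexus and the liver share, ran from 14.4 to 1405 FPKM against 1.81 to 114. The highest Ttr was in Δ3102 replicate 1, and 2 plexus genes were under that p without it. With Prm2, Alb or Ttr as a covariate the contrast had 9, 8 and 7 called genes.

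The thresholds of the study, a ratio of mean FPKM above 2 or below 0.5 and an unadjusted p under 0.05, were applied to the contrast with p from edgeR. They took in 155 genes (0.858%), 68 higher and 87 lower, and 11 of the 155 were also under an unadjusted p of 0.05 in both pairs with the same sign. With adjusted p there were 8. The count was 400 without Δ3102 replicate 3, and leaving out AG-KO replicate 2 gave 266.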

How the data were processed

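RNA-Seq of poly(A) RNA from 14 hippocampal libraries was analysed. Per the labels and the study's methods, reads were trimmed with cutadapt 1.9, mapped with HISAT2 2.0.4 to GRCm38 and quantified with StringTie 1.3.4d. UMI-tools, DESeq2 and edgeR are listed without versions. The authors deposited FPKM values, with 0.0001 where a gene has no signal, and raw counts per gene for each library. The program that made the counts and its strand setting are not given in the sources used here. Identifiers were those of GENCODE vM21, with the same coordinates for 94.7% of genes. Of 55450 genes, 18059 with FPKM of at least 0.5 in at least 3 libraries were tested, and these hold 99.641% to 99.732% of the counts. No libraries were identical.

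Counts were fitted with edgeR 4.0.16 (R 4.3.3, quasi-likelihood, TMM scaling, 1 mean per genotype), and the contrast was the mean of Δ3102 and AG-KO minus the mean of WT and NG-KO. Benjamini-Hochberg adjustment covered all tested genes. Standard errors were derived from each fold change and its F statistic. Exact permutation tests on log2(FPKM + 0.1) and list counts were made in Python 3.11.15 with SciPy 1.17.1. Alternatives used DESeq2 1.42.0 and limma 3.58.1, other scalings and filters, other designs and libraries left out. The test was checked on simulated data. Genes are named if called, if among the 10 non-overlapping genes per direction with the largest change (FPKM of at least 1, no predicted models), if followed by the study, or if the member with the smallest p of a list or of the 1 Mb around Gper1. Genes outside this rule are marked as chosen after their values were seen. The contrast, members and lists were chosen with earlier results of these data known. Some single-gene values are not reported here.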

Additional observations from a re-analysis of the deposited data

Results flagged for a closer look

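In groups of 4 libraries, single libraries stood far from the other 3 for 6 of the 132 groups examined over 66 named genes, and chance alone marks about 1 group in 20. Pja1 was at 25.0 FPKM in NG-KO replicate 4 and at 57.2 to 61.9 in the other NG-KO libraries. Tmem245 was at 2.77 FPKM in NG-KO replicate 3 against 3.20 to 3.25. Zfyve21 was at 5.56 FPKM in NG-KO replicate 2 against 3.26 to 3.61. Armcx5 was at 2.87 FPKM in AG-KO replicate 3 against 4.16 to 4.21. Kcnj10 was at 39.5 FPKM in AG-KO replicate 2 against 52.4 to 53.7. Vcan was at 1.17 FPKM in AG-KO replicate 1 against 0.804 to 0.813.

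For 7 called genes the germline pair differed from the Cre pair in edgeR at an adjusted p under 0.05. The difference, Δ3102 minus WT less AG-KO minus NG-KO on the log2 scale, was 3.45 for Gm13394, -5.18 for Gapdh-ps15, 1.61 for Alad and -0.796 for Myh10. It was -8.32 for Gm26826, where the size depends on counts of 0 in NG-KO libraries, -1.32 for Edil3 and 1.19 for Invs.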

How the results depend on the processing

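The count of genes called for the contrast, 14, was 14 with median-ratio or upper-quartile scaling, 12 without a filter, 11 with a stricter one, 12 with robust fitting and 13 with voom weights. It was 90 with DESeq2, 8, 8 and 9 with limma on log2(FPKM + 0.1), (FPKM + 1) and (FPKM + 0.01), 9, 8 and 7 with Prm2, Alb or Ttr as a covariate, 9 without AG-KO replicates 3 and 4, and 38 without the libraries with Prm2 above 1 FPKM, a fit that leaves WT and NG-KO with 1 library each, assumed to vary like the other genotypes. As 2 groups of 7 it was 0 (1485 at an unadjusted p under 0.05), and 1 with a germline or Cre term. The covariate and joint leave-out fits were chosen after seeing the data. With replicate number as a block it was 4, against 1 in the germline pair and 9 in the Cre pair, and Pja1 was at -1.36 (adjusted p = 0.189). Deviations of same-number libraries had r of -0.28 to 0.31, over 0.1 in 6 of 19. Those of other numbers had r of -0.44 to 0.43, over 0.1 in 15 of 54. With so few libraries these values cannot settle whether numbers mark a pair or a batch. Leaving out 1 library gave 7 to 21 for the contrast. The germline pair had 2 genes, 30 with DESeq2, 0 with its own genotypes only and 2 to 10 without 1 library (10 without WT replicate 1). The Cre pair had 20, 430 with DESeq2, 477 with voom weights, 13 with its own genotypes only and 13 to 297 without 1 library (297 without AG-KO replicate 2). The difference between the pairs had 8, 126 with DESeq2 and 8 to 17 without 1 library. Gper1 was at -2.27 with DESeq2, past the threshold, and at -2.68 to -1.89 without 1 library. Pja1 lost its call as 2 groups (-1.35, or -1.36 with the term), with Prm2 (-1.41) or Ttr (-1.365), without AG-KO replicates 3 and 4 (-1.51) and without the Prm2 libraries (-1.59), and stood at -1.50 to -1.30 without 1 library. Serpina3n, Gfap and Dbn1 stood at 0.19 to 0.38, 0.03 to 0.14 and 0.01 to 0.07, and Dbn1 turned to -0.0476 with Alb. The 155 genes past the study's thresholds became 8 with adjusted p and 135 to 400 without 1 library. The cause of these shifts was not tested.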
